A study of Mus musculus with 22 samples.

Results

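A set of genes associated with astrocytes and the complement gene C4a were followed across every group of a mouse cortex series on a defect of the U1 small nuclear ribonucleoprotein (U1 snRNP). The members were chosen by symbol as S100b, Slc1a2, Slc1a3, Gfap, Aqp4, Aldoc, Glul, Cst3 and C4a. All 9 were found in both deposited score tables, among 15705 genes at 6 months and 15192 genes at 12 months. Each value is an Sd score, a linear ratio per gene and library with 3 decimals, taken here as a splicing deficiency score that is higher when more of a gene's signal is unspliced. The formula behind it was not given in the sources used here. The series' title asks how dysfunction of the U1 snRNP relates to neuronal hyperexcitability and cognitive impairment.

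Poly(A) RNA from cortex was sequenced in 22 libraries. The 6-month animals were littermates from crosses of N40K-Tg and FAD carriers, with 3 libraries per genotype. N40K mice express an N-terminal fragment of Snrnp70, a core protein of the U1 snRNP, 5xFAD mice carry mutant human amyloid precursor protein and presenilin transgenes, dTg mice carry the N40K and 5xFAD transgenes together, and WT mice carry neither. The 12-month animals were littermates from crosses of Tau P301S carriers with wild type, with 6 libraries of Tau P301S mice, whose transgene encodes a disease mutant of human tau, and 4 of WT mice. The labels give neither the promoters of the transgenes nor the sex of the animals. They do not say that every library came from a separate animal, so the p-values below measure the spread between these libraries. In the averaged comparisons at 6 months, N40K carriers are the N40K and dTg libraries and 5xFAD carriers are the 5xFAD and dTg libraries, with 6 carriers set against 6 non-carriers each time.

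The U1 snRNP pairs with the 5′ splice site of an intron and starts the assembly of the spliceosome. Astrocytes clear glutamate and potassium from the synapse, convert glutamate to glutamine and line blood vessels with endfeet. In amyloid and tau disease they take on a reactive state in which the filament protein gene Gfap and complement component 4 are known to be raised. Read as a splicing deficiency score, a value speaks of how completely the transcripts present were spliced, and not of how many there were. Expression levels were not analysed here, so the astrocyte label of the members rests on their known roles and could not be checked against marker levels. In whole cortex, fewer cells of a type and less RNA per cell cannot be told apart, and a score pools every cell that transcribes the gene.

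The members differed widely in score, with Aldoc and C4a far above the other 7. At 6 months, S100b (ENSMUSG00000033208), a calcium-binding protein of astrocytes, had a mean of 0.00242 over 12 libraries, at the 4.9th percentile of all genes. Cst3 (ENSMUSG00000027447), which encodes a secreted inhibitor of cysteine proteases, had 0.0025. The glutamate transporter genes Slc1a2 (ENSMUSG00000005089) and Slc1a3 (ENSMUSG00000005360) had 0.00333 and 0.00392. Glul (ENSMUSG00000026473), the glutamine synthetase that turns glutamate into glutamine, had a mean of 0.00517. Gfap (ENSMUSG00000020932), the intermediate filament of astrocytes, had 0.0142, and Aqp4 (ENSMUSG00000024411), the water channel of the endfeet, had 0.0184. C4a (ENSMUSG00000015451) had 0.256, at the 89.3rd percentile, and the glycolytic enzyme gene Aldoc (ENSMUSG00000017390) had 0.318, at the 91.3rd percentile. Of the 9 members, 7 therefore had a mean under 0.02, as did 6065 of all genes (38.6%). For these a step of the last decimal, 0.001, is a large part of the value, from 5.43% of the mean in Aqp4 to 41.4% in S100b.

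The high scores of Aldoc and C4a did not go with long introns. In GENCODE M21 (GRCm38 build), Aldoc (chromosome 11) has 1551 intronic against 3263 exonic bases, and C4a (chromosome 17) has 8167 intronic against 6206 exonic bases. Slc1a2 (chromosome 2) has 118993 intronic and 13133 exonic bases, and its score was 0.003 or 0.004 in every 6-month library. S100b (chromosome 10) and Cst3 (chromosome 2), with 2 introns each in their longest transcripts, had the lowest scores of the members at 6 months, and Aldoc has 8 introns and C4a 40. Gfap also has 8 introns, Slc1a3 has 9 and Slc1a2 has 10, and their scores were far below that of Aldoc. Aqp4 has 4 introns and Glul 6. The part of intron number in the scores was not tested. Several members overlap another annotated gene. On the opposite strand these are Dip2a for S100b, Gm13872 for Slc1a2, Gm26668 for Gfap, AC133525.2 for Aqp4 and Teddm2 for Glul. On the same strand they are Gm37310 for Slc1a3 and Mir8114 for Glul. Aldoc, Cst3 and C4a overlap none. Whether the scores used the strand is not given in the sources used here, and the part of these neighbours in the scores was not tested.

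C4a needs care, because mouse chromosome 17 holds a near-identical copy, C4b, which encodes complement component 4. C4a is annotated as a processed transcript in GENCODE M21, and C4b as protein-coding. The longest transcripts of C4a and C4b differ at 207 of 5367 aligned bases (96.1% identical). Of the 5272 stretches of 100 bases in the C4a transcript, 871 (16.5%) occur without a change in C4b, and the longest shared run is 433 bases. Reads from these stretches could be assigned to either gene, which makes the scores of C4a and C4b uncertain. Only spliced transcripts were compared. The introns, 8167 bases in C4a and 9808 in C4b, were not aligned, so the share of 16.5% does not measure how uncertain the scores are. The most divergent coding stretch of 100 bases shows what separates them at best. It holds 15 differences, printed in capitals, at transcript positions 1212 to 1311 in C4a and 1209 to 1308 in C4b, read 5′ to 3′.
C4a: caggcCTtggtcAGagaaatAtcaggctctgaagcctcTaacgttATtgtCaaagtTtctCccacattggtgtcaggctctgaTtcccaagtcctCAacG
C4b: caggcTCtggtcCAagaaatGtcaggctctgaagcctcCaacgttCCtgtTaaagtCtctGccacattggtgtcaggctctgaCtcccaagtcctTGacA
The median stretch of that length differs at only 2 bases. C4b is given beside C4a in the comparisons.

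**Figure D1:**
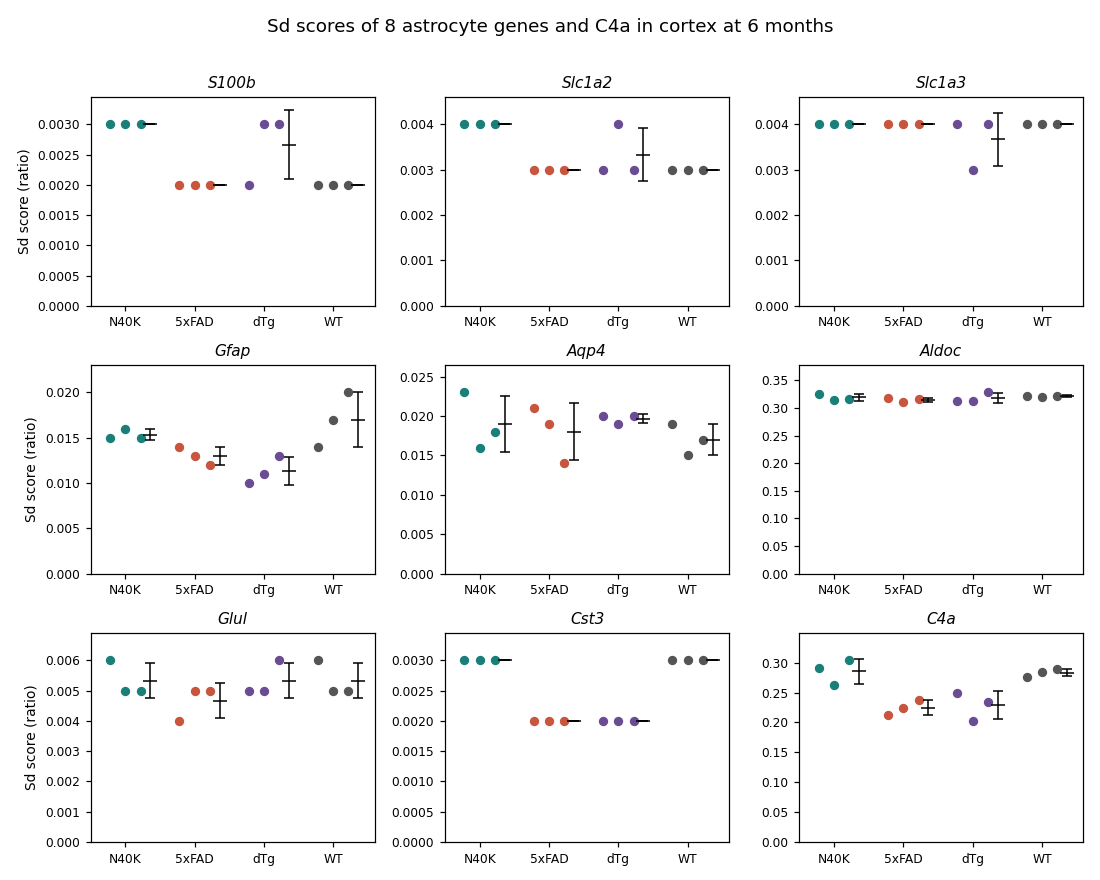
Sd score (ratio, vertical axis from 0, a scale of its own in each panel) of the 9 members in N40K, 5xFAD, dTg and WT cortex at 6 months, with a point per library and the mean ± SD (n = 3) beside each group. S100b, Slc1a2 and Cst3 sit on a grid of single steps of 0.001, while C4a is between 0.203 and 0.249 in 5xFAD and dTg libraries and between 0.262 and 0.304 in N40K and WT libraries.

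Among genes that handle glutamate and calcium, S100b and Slc1a2 had higher scores where the N40K transgene was present. S100b was listed at 0.003 in all 3 N40K libraries and at 0.002, 0.003 and 0.003 in dTg libraries, against 0.002 in each of the 3 5xFAD and the 3 WT libraries. Slc1a2 was listed at 0.004 in all 3 N40K libraries and at 0.003, 0.004 and 0.003 in dTg libraries, against 0.003 in each 5xFAD and WT library. Every N40K library was thus 1 step above every WT library, and the dTg libraries overlapped those without the transgene. Averaged over 5xFAD status, S100b rose 1.20-fold in N40K carriers (95% interval 1.11 to 1.31, limma adjusted p = 0.0183), and Slc1a2 rose 1.13-fold (1.05 to 1.21, limma adjusted p = 0.0390). These folds are on the scale of the score plus 0.002, which draws low scores together. As a ratio of the mean scores S100b stood at 1.42, and rounding alone would allow anything from 0.933 to 2.22 for that ratio. For Slc1a2 the ratio of means was 1.22, with 0.905 to 1.67 allowed by rounding.

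Most genes had higher scores in N40K carriers. The median gene was 0.09 higher in N40K carriers on the log2 scale, 10.8% of all genes passed as higher (1691) and 0.936% as lower (147), and 2 of 9 members passed, both higher. The members' median difference was 0.02. With each library centred on its median the difference of the median gene became −0.04, 713 genes passed as higher and 528 as lower, and neither member passed: S100b stood at 0.13 (limma adjusted p = 0.131) and Slc1a2 at 0.04 (limma adjusted p = 0.646). The largest library medians, 0.036 and 0.035, were those of N40K replicate 1 and dTg replicate 2, against 0.029 to 0.031 in the 6 non-carriers. Without both, S100b stood at 0.24, against 0.27 with them, and did not pass (limma adjusted p = 0.0665), while Slc1a2 stood at 0.13, against 0.18, and passed (limma adjusted p = 0.00860). Slc1a2 missed the threshold in 9 of the 12 fits that left out 1 library, with limma adjusted p up to 0.0821 without 5xFAD replicate 3, and S100b passed in all 12.

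Slc1a3, the other glutamate transporter of astrocytes, was listed at 0.004 in all N40K, 5xFAD and WT libraries and in 2 of 3 dTg libraries, the remaining one having 0.003. Glul was between 0.004 and 0.006 in all 12 libraries. The water channel gene Aqp4 averaged 0.019 ± 0.00361 in N40K, 0.018 ± 0.00361 in 5xFAD, 0.0197 ± 0.000577 in dTg and 0.017 ± 0.002 in WT libraries (SD, n = 3 each), and these ranges overlapped. Aldoc, the most highly scored member, was nearly constant, from 0.311 to 0.328. Its 5xFAD libraries (0.318, 0.311 and 0.316) all lay below the WT ones (0.322, 0.320 and 0.322), by −0.03 on the log2 scale, and this did not pass (limma adjusted p = 1). None of these 4 genes passed in any of the 8 comparisons at 6 months.

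Cst3 was the 1 member that passed for the amyloid transgenes, with lower scores in the carriers. It was listed at 0.002 in all 3 5xFAD and all 3 dTg libraries, against 0.003 in all 3 N40K and all 3 WT libraries. Averaged over N40K status, Cst3 fell in 5xFAD carriers, with a fold of 0.800 on the scale of the score plus 0.002 (95% interval 0.775 to 0.825, limma adjusted p = 0.000766). Only 0.0191% of all genes passed as lower in this comparison (3 of 15705), and Cst3 was the 1 member of 9 among them. It was also the 1 gene of 15705 that passed as lower in 5xFAD against WT (0.00637% of genes, limma adjusted p = 0.00538) and in dTg against N40K (0.00637%, limma adjusted p = 0.00538).

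The whole of the Cst3 difference is a single step of the last decimal with no spread inside any group. The ratio of the mean scores was 0.667, and rounding alone allows 0.429 to 1. Genes of this kind, with no spread in any of the 4 groups, numbered 289, and they made up 5 of the 7 genes called in either direction for the averaged 5xFAD effect (0.0446% of genes) and 3 of the 3 called in 5xFAD against WT (0.0191% of genes). Cst3 passed in every fit that left out 1 library and with the pseudocount of 0.001. It did not pass after median-centring, where its difference was −0.33, against −0.32 in the uncentred fit (limma adjusted p = 0.0788), with a pseudocount of 0.01 (limma adjusted p = 0.0649) or without the log (limma adjusted p = 0.306). With the replicate number as a block, the calls in 5xFAD against WT and in dTg against N40K were lost (limma adjusted p = 0.131 each), with the difference at −0.32 as before.

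**Figure D2:**
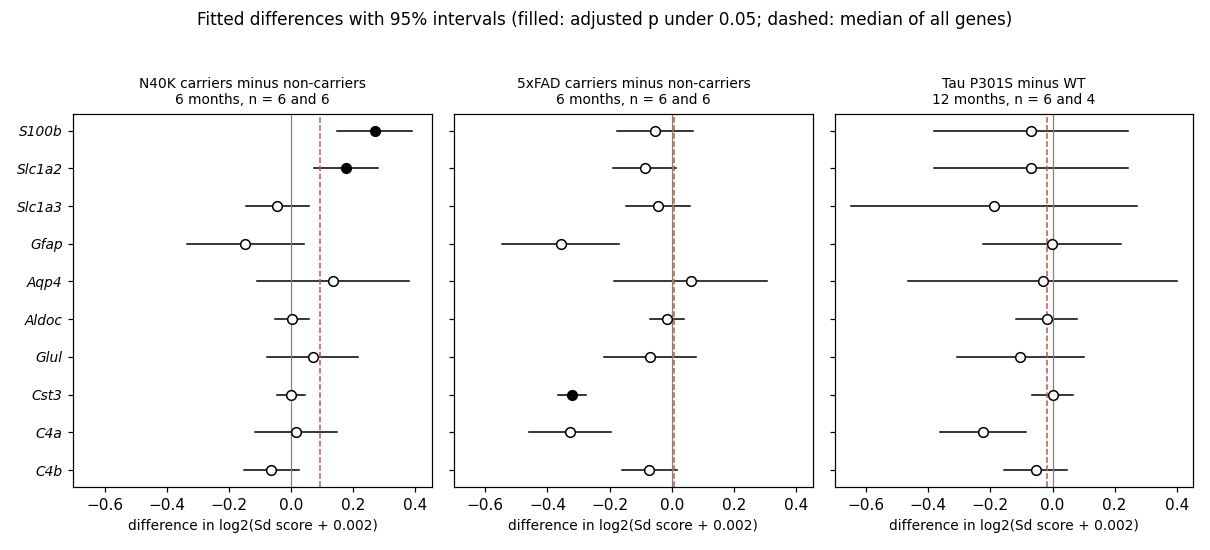
Fitted difference in log2(Sd score + 0.002) with its 95% interval (horizontal axis) for the 9 members and C4b in N40K carriers minus non-carriers, 5xFAD carriers minus non-carriers and Tau P301S minus WT, with filled points at a limma adjusted p under 0.05 and a dashed line at the median of all genes. S100b and Slc1a2 are filled on the right in the N40K panel, Cst3 is filled on the left in the 5xFAD panel, and C4a lies left of 0 with an open point in the 5xFAD (−0.33) and Tau P301S (−0.22) panels.

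Gfap, a gene of the reactive state, and C4a had lower scores in mice with the amyloid transgenes, but neither passed over all genes. Gfap had 0.014, 0.013 and 0.012 in 5xFAD libraries, 0.010, 0.011 and 0.013 in dTg libraries, 0.015, 0.016 and 0.015 in N40K libraries and 0.014, 0.017 and 0.020 in WT libraries. The carriers' highest value and the lowest WT value were both 0.014, so carriers and non-carriers touched. Gfap averaged 0.0122 ± 0.00147 in 5xFAD carriers and 0.0162 ± 0.00214 in non-carriers (SD, n = 6 each), a fitted ratio of 0.780 (95% interval 0.685 to 0.889, limma adjusted p = 0.296). In N40K carriers against non-carriers its difference was −0.15 (limma adjusted p = 0.275).

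C4a had 0.212, 0.225 and 0.237 in 5xFAD libraries, 0.249, 0.203 and 0.235 in dTg libraries, 0.291, 0.262 and 0.304 in N40K libraries and 0.277, 0.285 and 0.289 in WT libraries. All 6 carriers of the 5xFAD transgenes lay below all 6 non-carriers. That held for 0.236% of all genes in this direction (37 of 15705) and for 2 of the 9 members, C4a and Cst3. C4a averaged 0.227 ± 0.0170 in 5xFAD carriers and 0.285 ± 0.0142 in non-carriers (SD, n = 6 each), a fitted ratio of 0.797 (95% interval 0.727 to 0.874). The unadjusted p was 0.000319 in the limma fit, and the adjusted p was 0.144, with 0.134 to 0.328 over the 21 alternative settings. The lowest of these came with the mean of C4a and C4b in place of C4a. For C4a itself the lowest limma adjusted p was 0.142, from eBayes with trend. Its N40K difference was 0.02 (limma adjusted p = 0.902), and its sign turned with median-centring (−0.12).

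The copy C4b had a smaller fitted difference. C4b had 0.121, 0.110 and 0.112 in 5xFAD libraries, 0.112, 0.106 and 0.108 in dTg libraries, 0.120, 0.117 and 0.108 in N40K libraries and 0.117, 0.125 and 0.117 in WT libraries. Carriers and non-carriers overlapped, and the difference was −0.07 (limma adjusted p = 0.875). The C4b difference in N40K carriers was −0.06 (limma adjusted p = 0.315).

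The ratio of the C4a score to the C4b score in the same library was looked at because C4a separated the groups and C4b did not, so it is given as a description with no test. It averaged 2.04 ± 0.177 in 5xFAD carriers (range 1.75 to 2.22) and 2.43 ± 0.206 in non-carriers (range 2.24 to 2.81; SD, n = 6 each), so no carrier reached any non-carrier. On the log2 scale with 0.002 added to each score the difference was −0.25, and it ran from −0.29 to −0.21 under the 14 alternative settings. For N40K carriers the ratio was 2.30 ± 0.301, against 2.17 ± 0.259 in non-carriers, and the ranges overlapped. How reads shared between the copies were split between the 2 scores is not given in the sources used here.

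**Figure D3:**
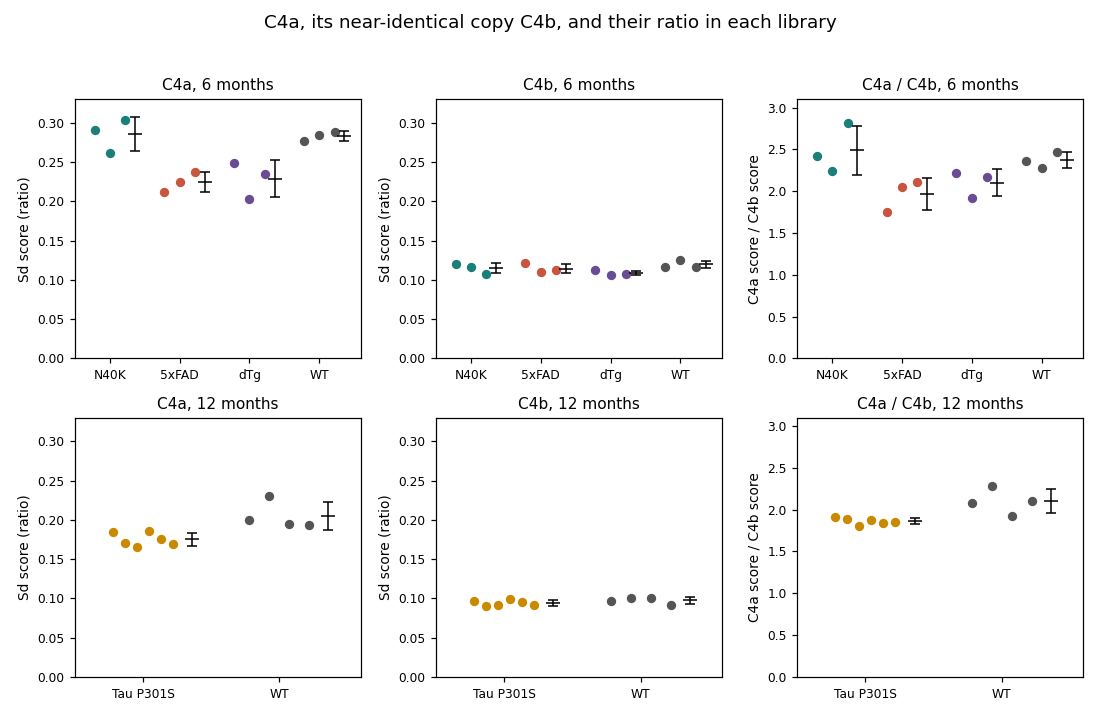
Sd scores of C4a and C4b (left and middle panels) and the ratio of the C4a to the C4b score (right panels) by group at 6 months (top) and 12 months (bottom), with a point per library and the mean ± SD beside each group (n = 3 at 6 months, 6 Tau P301S and 4 WT at 12 months). C4a and the ratio are lower in 5xFAD and dTg than in N40K and WT libraries and lower in Tau P301S than in WT libraries, while C4b overlaps between carriers and non-carriers of 5xFAD and between Tau P301S and WT, and its dTg points lie below its WT points.

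Between single groups the members gave few calls. In dTg against WT, Cst3 fell (0.800-fold, limma adjusted p = 0.00101) and was the 1 of 9 members that passed, against 0.166% of all genes as lower and 1.41% as higher. Gfap (0.705-fold, limma adjusted p = 0.0595) and C4a (0.806-fold, limma adjusted p = 0.0768) had libraries that did not overlap and missed the threshold. C4b did the same, with 0.106 to 0.112 in dTg and 0.117 to 0.125 in WT libraries (0.910-fold, limma adjusted p = 0.189). Libraries did not overlap, with dTg lower, in 3 of 9 members and in 3.46% of all genes. In dTg against N40K, the same 3 members, Cst3, Gfap and C4a, did not overlap, against 2.60% of all genes. C4a stood at −0.32 (limma adjusted p = 0.631) and C4b at −0.08 (limma adjusted p = 1) there. In 5xFAD against WT, Cst3, C4a and Aldoc were lower without overlap, against 2.92% of genes, with C4a at −0.34 (limma adjusted p = 0.682) and C4b at −0.07 (limma adjusted p = 1). These comparisons share the libraries of a group with one another, so they do not count as separate evidence.

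In N40K against WT none of the 9 members passed, while 0.178% of all genes did. S100b had the smallest p (1.25-fold, limma adjusted p = 0.0820), and it and Slc1a2 were the 2 members whose N40K libraries all lay above WT, which 16.8% of all genes also did. In dTg against 5xFAD no member passed (0.312% of genes did), and S100b was again the one with the smallest p, at 1.16-fold (limma adjusted p = 0.188). Of the 9 members, 2 had an unadjusted limma p under 0.05 in N40K against WT (18.9% of all genes) and 1 in dTg against 5xFAD (18% of all genes). For the interaction of the transgenes no member had an unadjusted p under 0.05, against 2.87% of all genes, and none passed, against 0.0191%. Slc1a2 was nearest, with −0.18 on the log2 scale (limma adjusted p = 1). The interaction of C4a was 0.02, with a 95% interval from −0.25 to 0.28, and that of C4b was −0.01, with a 95% interval from −0.19 to 0.16 (limma adjusted p = 1 for both). Those intervals hold the differences of the amyloid effect between the N40K backgrounds that are compatible with these libraries. They are not adjusted over all genes and do not mark the smallest difference that could pass.

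At 12 months C4a had lower scores in all Tau P301S libraries than in any WT library, and it did not pass over all genes. C4a had 0.166 as the lowest, 0.173 as the median and 0.186 as the highest of 6 Tau P301S libraries, against 0.200, 0.231, 0.195 and 0.194 in the WT libraries. The groups did not overlap, which held in this direction for 0.994% of all genes and for 1 of 9 members. C4a averaged 0.175 ± 0.00829 in Tau P301S (SD, n = 6) and 0.205 ± 0.0175 in WT mice (SD, n = 4), a fitted ratio of 0.856 (95% interval 0.778 to 0.943, limma adjusted p = 0.396). WT replicate 2 carried the highest value, and without it the difference was −0.17, against −0.22 with it (limma adjusted p = 0.369).

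C4b ranged from 0.090 to 0.099 in Tau P301S and from 0.092 to 0.101 in WT libraries, with a difference of −0.05 (limma adjusted p = 0.800). The ratio of C4a to C4b averaged 1.86 ± 0.0392 in Tau P301S (range 1.80 to 1.92, n = 6) and 2.10 ± 0.146 in WT mice (range 1.93 to 2.29, n = 4). The groups did not overlap, and the difference was −0.17 on the log2 scale, again a description with no test. It ran from −0.21 (without WT replicate 3) to −0.13 (without WT replicate 2) under the 11 alternative settings.

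None of the other 8 members separated Tau P301S from WT mice. Gfap averaged 0.0105 ± 0.00138 in Tau P301S and 0.0105 ± 0.00129 in WT libraries, both between 0.009 and 0.012 (limma adjusted p = 1). Slc1a3 was 0.0225 ± 0.00497 in Tau P301S and 0.026 ± 0.00712 in WT libraries (limma adjusted p = 0.858). Cst3 was listed at 0.002 in all 10 libraries, and S100b and Slc1a2 at 0.001 or 0.002. Aqp4 lay between 0.010 and 0.019 in Tau P301S and between 0.011 and 0.020 in WT libraries, and Aldoc between 0.272 and 0.296 in Tau P301S and between 0.271 and 0.297 in WT libraries. Glul was between 0.004 and 0.005 in Tau P301S and between 0.004 and 0.006 in WT libraries. No member passed, in a table where 1 gene of 15192 did (0.00658%), and C4a was the 1 member with an unadjusted p under 0.05 (8.28% of all genes).

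**Figure D4:**
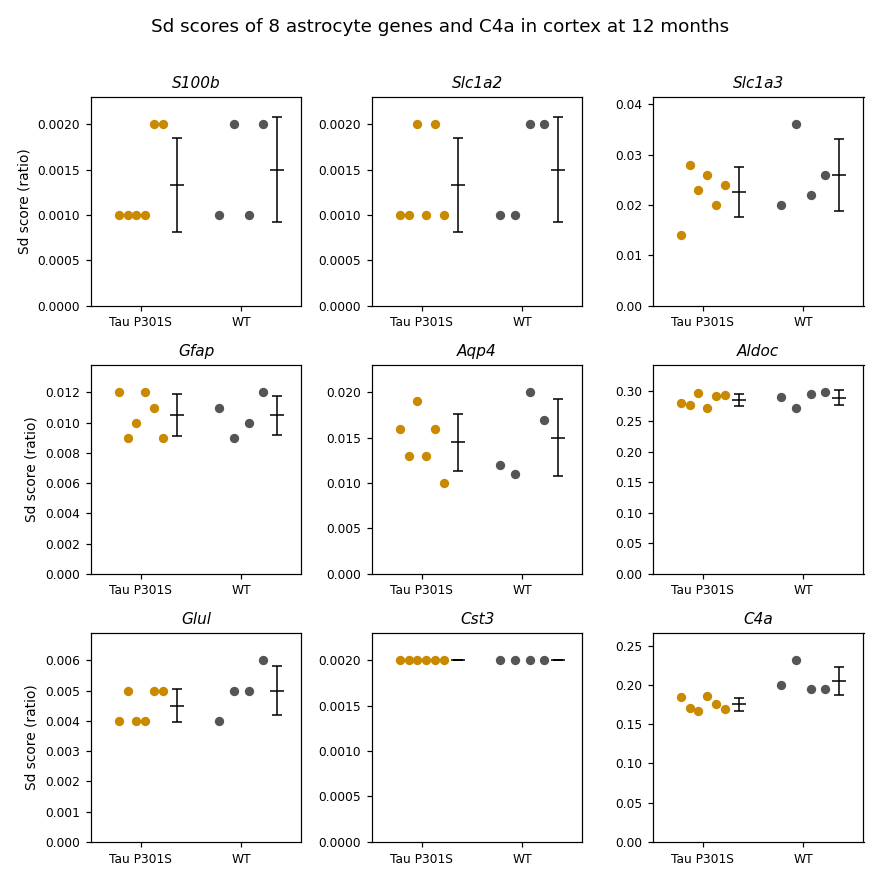
Sd score (ratio, vertical axis from 0, a scale of its own in each panel) of the 9 members in Tau P301S (n = 6) and WT (n = 4) cortex at 12 months, with a point per library and the mean ± SD beside each group. In C4a all 6 Tau P301S points, 0.166 to 0.186, lie below the 4 WT points, and the other panels overlap or hold a single value.

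Between the ages, the glutamate transporter gene Slc1a3 stood apart from the other members. It had 0.020, 0.036, 0.022 and 0.026 in WT libraries at 12 months, against 0.004 in each WT library at 6 months. The ratio of the mean scores was 6.5, at the 98.2nd percentile of the 12896 genes in both tables with a WT mean above 0 at 6 months, whose median ratio was 0.628. The other 8 members had ratios between 0.5 (Slc1a2) and 0.938 (Glul), with C4a at 0.723 and its copy C4b at 0.815. With this, Slc1a3 was at the 61st percentile of all genes at 12 months and at the 9.17th at 6 months. The 2 ages stand in separate tables from different crosses, so age, cross and processing cannot be told apart and no test was run.

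Other genes linked to astrocytes, reactive astrocytes and complement were read beside the members, by their counts. Of 36 other astrocyte genes measured at 6 months, 1 passed in any comparison. It was Sox9, a transcription factor of astrocytes, with 0.023 ± 0.00551 in N40K carriers and 0.0357 ± 0.0125 in non-carriers (SD, n = 6 each, 0.682-fold, limma adjusted p = 0.0438), and without both libraries of highest median its difference was −0.42, against −0.55 with them, and it did not pass (limma adjusted p = 0.107). None of 27 reactive-state genes and none of 27 complement genes other than C4a passed in any of the 8 comparisons. Over all genes 11.7% passed in either direction in N40K carriers (0.936% as lower) and 1.57% in dTg against WT. In 5xFAD carriers 0.0446% passed, and in each of the remaining comparisons 0.312% or less. The reactive-state genes had a median difference of −0.07 in 5xFAD carriers, with 1 higher and 4 lower at an unadjusted limma p under 0.05. The complement genes had a median of −0.00205, with 0 higher and 1 lower. Over all genes the median was 0.01, and 6.17% had an unadjusted p under 0.05 in either direction.

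In the reactive list the smallest p for 5xFAD carriers was that of the interferon-induced GTPase gene Gbp2 (0.760-fold, limma adjusted p = 0.407), and in the complement list that of C2, a serine protease of the classical pathway (0.897-fold, limma adjusted p = 0.614). At 12 months none of 36 astrocyte, 27 reactive-state and 31 complement genes passed, against 0.00658% of all genes. Their median differences in Tau P301S were −0.07, −0.09 and −0.06, against −0.02 for all genes. At an unadjusted limma p under 0.05, 6 of 27 reactive-state and 4 of 31 complement genes were lower and none higher, against 8.28% of all genes in either direction. They included the sphingosine receptor gene S1pr3 (0.316-fold, limma adjusted p = 0.291) and the protease gene C1s of the first complement component (0.486-fold, limma adjusted p = 0.422).

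Genes of other cell types were read in the same way. Of 10 microglial genes measured at 6 months, 1 passed as lower in 5xFAD carriers, against 0.0191% of all genes. At an unadjusted limma p under 0.05, 6 of the 10 were lower, against 6.17% of all genes in either direction. Their median difference was −0.20. Cd68, a lysosomal membrane protein of microglia, fell to 0.186 ± 0.0171 in 5xFAD carriers, against 0.266 ± 0.0168 in non-carriers (SD, n = 6 each, 0.701-fold, limma adjusted p = 0.0265). With N40K replicate 1 and dTg replicate 2 left out its difference was −0.52, against −0.51 with them, and it did not pass (limma adjusted p = 0.0716). Cd68 and the lysosomal protease gene Ctsz passed in dTg against WT (0.664-fold, limma adjusted p = 0.0248, and 0.698-fold, limma adjusted p = 0.0489), where 0.166% of all genes passed as lower. Without both libraries Ctsz did not pass (limma adjusted p = 0.0620). In N40K carriers the oligodendrocyte transcription factor Olig2 (0.815-fold, limma adjusted p = 0.0435) and the endothelial receptor Tek (0.796-fold, limma adjusted p = 0.0157) fell, and the synaptic vesicle fusion gene Snap25 rose (1.36-fold, limma adjusted p = 0.00514). Each was the 1 gene of its list that passed, of 11 oligodendrocyte, 7 endothelial and pericyte and 13 neuronal genes measured. The list medians were 0.10, −0.05 and 0.17 on the log2 scale, against 0.09 for all genes. Over all genes 10.8% passed as higher and 0.936% as lower. Without both libraries Tek and Snap25 passed and Olig2 did not (−0.25, against −0.30 with them, limma adjusted p = 0.159). Snap25 also rose 1.46-fold in dTg against WT (limma adjusted p = 0.0173) and against 5xFAD (limma adjusted p = 0.0238), where 1.41% and 0.28% of all genes passed as higher. It was listed at 0.003 in all 6 non-carriers of N40K and at 0.004 to 0.006 in the carriers. The rise of Snap25 is thus a few steps of the last decimal against a reference with no spread, and rounding limits it too. At 12 months no gene of the microglial, oligodendrocyte, neuronal or endothelial lists passed, against 0.00658% of all genes. Of 15 microglial genes measured there, 4 were lower and 0 higher in Tau P301S at an unadjusted limma p under 0.05. Over all genes 8.28% had such a p in either direction. The microglial median difference was −0.11, against −0.06 for oligodendrocyte, −0.01 for neuronal, −0.04 for endothelial and pericyte and −0.02 for all genes. The part of these genes' cell types in the members' scores was not tested.

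For the 3 members that passed, the genes with the most similar pattern over the 12 libraries were sought among 7408 genes with a mean score of at least 0.02, predicted genes left out. The measure was the mean absolute difference of log2 scores after centring each gene. Nearest to Cst3 were the progranulin gene Grn (0.06), Efcab4a (0.07) and C4a (0.07). Grn averaged 0.116 in 5xFAD and 0.114 in dTg libraries, against 0.131 in N40K and 0.133 in WT libraries. Nearest to S100b were Rcbtb2 (0.04), Agbl5 (0.04) and Trp53 (0.05), and nearest to Slc1a2 were Helq (0.04), Rer1 (0.05) and Zfp420 (0.05). All of these share the libraries and their overall shift.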

How the data were processed

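The deposited Sd scores are a linear ratio per gene and library, rounded by the authors to 3 decimals as the files show. Per the submitters' processing notes, CASAVA, STAR, BWA, bedtools 2.16.1 and the mm9 build were used. The score's formula, counter, annotation and read depth are not given in the sources used here. No interval that needs depth is printed. Libraries were mapped to groups by their titles.

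Scores were analysed as log2(score + 0.002), with 0.002 taken in both tables as the 5th percentile of scores over 0. Limma 3.58.1 in R 4.3.3 was fitted with 1 term per group over all genes and libraries of a table (8 residual and 1.2 or 1.11 prior degrees of freedom), with two-sided Benjamini-Hochberg adjustment over all genes and a threshold of 0.05. The fit was tested on simulated data. The changes simulated there were large and lay in genes of higher score. That test does not cover differences of a single step in genes of low score. The ratio of C4a to C4b was chosen after the values were seen and is described without a test. Sequences come from GENCODE M21 transcripts. Fits are unpaired. Libraries of a table correlated with r from 0.98 to 0.99 at 6 months and from 0.949 to 0.986 at 12 months.

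The members, gene lists and tests were chosen with earlier results of these data known. The rule named the 9 members, C4b beside C4a, the smallest p among the members in comparisons with no call, genes of the lists past the threshold or with the smallest p, and the 3 genes of nearest pattern. Alternatives were other pseudocounts, no log, median-centring, a minimum mean score of 0.02, eBayes with trend, the replicate block, the mean of C4a and C4b, only the groups compared, and leaving out libraries.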

Additional observations from a re-analysis of the deposited data

Results flagged for a closer look

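At 12 months the C4a score of WT replicate 2 was 0.231, far above the other 3 WT libraries (0.200, 0.195 and 0.194) relative to the range of the group. C4b had 0.101 in that library and 0.096, 0.101 and 0.092 in the others. Chance marks about 1 in 20 groups of continuous values in this way. At 12 months 18 groups were examined, each holding the scores of 1 member in 1 genotype. Cst3 has a single value in both genotypes and S100b and Slc1a2 take few values, so that rate does not hold for all of them. Without this library C4a stood at −0.17 in Tau P301S against WT, and the 6 Tau P301S libraries still lay below the remaining WT libraries.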

How the results depend on the processing

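Counts of members past the threshold were recomputed under each alternative. With only genes of a mean score of at least 0.02, which keeps 2 members at 6 months and 3 at 12 months, and with scores not put on a log scale, 0 passed in every comparison. Median-centring gave 0 for the averaged effects, for 5xFAD against WT and for dTg against N40K, and 2 for dTg against WT (Cst3 and Gfap). A pseudocount of 0.01 gave 1 for N40K carriers (S100b) and 0 for 5xFAD carriers, 5xFAD against WT and dTg against N40K. Samples of the same number did not deviate together (r from −0.200 to 0.0708 over 18 pairs at 6 months and from −0.265 to 0.191 over 4 pairs at 12 months), and the replicate block gave 1 for N40K carriers (S100b) and 0 for 5xFAD against WT and dTg against N40K. Fitting only the groups compared gave 2 in N40K against WT and 0 in dTg against N40K. Without both libraries of highest median 1 passed in N40K against WT, 1 for N40K carriers, 2 for 5xFAD carriers and 2 in dTg against N40K (Slc1a2 among them each time). Leaving out 1 library gave 0 to 1 in N40K against WT and in dTg against 5xFAD, 1 to 2 in dTg against WT, in dTg against N40K and for N40K carriers; without dTg replicate 1, S100b passed in the first 3 of these. The C4a difference in N40K carriers turned to −0.0093 as the mean of C4a and C4b and to −0.12 with centring, and ran from −0.0157 to 0.0574 without 1 library. The Gfap difference in Tau P301S, −0.00155, turned to 0.0184 with centring and to 0.0267 with the replicate block, and ran from −0.0611 to 0.0549 without 1 library. The cause of these changes was not tested. Over all genes, 749 to 2352 passed for N40K carriers, 0 to 38 for 5xFAD carriers, 0 to 524 in N40K against WT, 0 to 27 in 5xFAD against WT, 10 to 710 in dTg against WT, 0 to 296 in dTg against 5xFAD, 0 to 34 in dTg against N40K, 0 to 22 for the interaction and 0 to 5 in Tau P301S. Depth is unknown, and the 3 decimals limit the 7 members of lowest score.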
